A study of Mus musculus with 27 samples.

Results

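The regions described here are the windows that lie fully inside autosomal protein-coding genes longer than 500 kb in the mouse gene table of build GRCm38. Of 422141 autosomal windows with a value in every library, 25893 met this rule, out of 26192 windows that lie in such genes with or without a full set of values. They come from 216 genes, which hold between 11 and 285 windows each (median 112.5), and 304 of them lie in more than 1 long gene. The median gene length was 734.6 kb, and the longest gene was Ptprd with 2271 kb. The rule uses gene length and position, not a methylation value.

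Whole-genome bisulfite sequencing gave the percent of methylated CpG in windows named as holding 100 CpGs. TET_KO cells lack all 3 Tet enzymes through knockout of Tet1, Tet2 and Tet3. DNMT_WT is a wild-type line, the parent of a line without Dnmt1, Dnmt3a and Dnmt3b that is not analysed here, and TET_WT is the parental line of TET_KO. All 3 are mouse embryonic stem cell lines, sampled in 2i/Lif on D0 and after 1 and 2 days of differentiation to epiblast-like cells (D1 and D2), with 3 libraries per line and day and 27 in all. The labels do not say whether the 3 libraries of a group are separate cultures, so p-values measure only the spread between these libraries. Each genotype is 1 line in the labels, so a difference between lines holds for these lines. The values are percents without read counts, so the depth is unknown. Bisulfite reads 5-methylcytosine and 5-hydroxymethylcytosine alike, so both count as methylation here. Each library is a bulk sample, in which a change in every cell and a change in the mix of cells cannot be told apart. Window percents cannot check the Tet deletions or the cell types against marker levels.

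As background, stem cells in 2i and LIF have low DNA methylation, and they gain it through Dnmt3a and Dnmt3b when they turn into epiblast-like cells. Tet enzymes oxidise methylated cytosine, the first step of its active removal. Most of the longest mammalian genes code for neuronal adhesion proteins, receptors and channels that are silent or low in stem cells, while a smaller number, such as Dock1 or Smyd3, are used in many tissues. The body of a transcribed gene usually carries methylation, whereas a CpG-dense start is usually free of it.

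Long genes are mostly CpG-poor, and the annotated starts inside them differ widely in CpG count. Of 370 annotated starts that fall into these windows, 101 are starts of the long gene itself, in 68 genes. On chromosomes other than 18, 3 genes have both a start of at least 16 CpGs and a start of at most 8 CpGs in 300 bases, and the poorest and the richest of each are shown. The motif counted is CG, which reads the same on both strands. The bases run from 250 before to 50 after the start, on the plus strand of GRCm38.p6, from RefSeq, and capitals mark each CpG.
Anks1b start with 3 CpGs, chr10:90575477-90575776, plus strand: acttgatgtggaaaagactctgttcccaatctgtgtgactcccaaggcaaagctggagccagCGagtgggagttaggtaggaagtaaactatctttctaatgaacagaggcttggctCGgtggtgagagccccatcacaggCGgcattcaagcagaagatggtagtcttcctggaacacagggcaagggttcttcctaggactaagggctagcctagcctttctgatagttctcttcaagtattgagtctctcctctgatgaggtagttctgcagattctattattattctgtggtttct
Anks1b start with 41 CpGs, chr10:90829404-90829703, plus strand: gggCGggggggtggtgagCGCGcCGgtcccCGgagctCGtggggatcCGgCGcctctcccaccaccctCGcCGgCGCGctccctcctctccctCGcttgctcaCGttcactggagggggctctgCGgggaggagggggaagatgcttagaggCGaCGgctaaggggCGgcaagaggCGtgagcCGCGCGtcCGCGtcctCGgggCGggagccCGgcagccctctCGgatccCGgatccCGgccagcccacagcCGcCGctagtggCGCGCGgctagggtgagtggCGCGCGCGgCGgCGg
Dpp6 start with 6 CpGs, chr5:27048949-27049248, plus strand: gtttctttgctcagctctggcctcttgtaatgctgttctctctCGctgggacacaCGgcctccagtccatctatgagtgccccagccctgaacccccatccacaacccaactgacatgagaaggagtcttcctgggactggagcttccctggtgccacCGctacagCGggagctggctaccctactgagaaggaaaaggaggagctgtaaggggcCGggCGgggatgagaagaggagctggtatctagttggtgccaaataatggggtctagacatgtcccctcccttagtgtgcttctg
Dpp6 start with 16 CpGs, chr5:27261685-27261984, plus strand: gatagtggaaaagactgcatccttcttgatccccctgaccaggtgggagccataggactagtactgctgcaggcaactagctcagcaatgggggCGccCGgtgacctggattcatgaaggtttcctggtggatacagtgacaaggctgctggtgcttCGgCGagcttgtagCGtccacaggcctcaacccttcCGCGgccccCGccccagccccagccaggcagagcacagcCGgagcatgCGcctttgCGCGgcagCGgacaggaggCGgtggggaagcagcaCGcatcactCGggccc
Magi2 start with 4 CpGs, chr5:19907268-19907567, plus strand: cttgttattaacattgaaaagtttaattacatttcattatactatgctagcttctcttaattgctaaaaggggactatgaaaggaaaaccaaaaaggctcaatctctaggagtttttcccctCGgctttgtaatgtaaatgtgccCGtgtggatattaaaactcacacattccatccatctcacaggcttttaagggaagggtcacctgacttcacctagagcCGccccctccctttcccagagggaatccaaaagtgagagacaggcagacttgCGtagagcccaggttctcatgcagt
Magi2 start with 29 CpGs, chr5:19226796-19227095, plus strand: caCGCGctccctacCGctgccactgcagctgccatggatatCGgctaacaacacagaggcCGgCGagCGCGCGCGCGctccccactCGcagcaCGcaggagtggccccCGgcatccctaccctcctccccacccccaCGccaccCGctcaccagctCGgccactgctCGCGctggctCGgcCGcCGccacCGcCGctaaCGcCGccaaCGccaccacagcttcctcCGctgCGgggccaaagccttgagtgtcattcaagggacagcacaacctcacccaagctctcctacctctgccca

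Anks1b codes for an ankyrin-repeat protein of synapses, Dpp6 for an auxiliary subunit of potassium channels and Magi2 for a scaffold of cell junctions and synapses. The 334-bp window around the Anks1b start with 41 CpGs held at most 2.11% methylation in any D0 library of TET_KO and 0% in the 3 D0 libraries of TET_WT, and on D2 it had 0, 0.457 and 0% in TET_KO and 0% in each TET_WT library. The 2836-bp window around the Anks1b start with 3 CpGs had 81.8, 78.2 and 80.9% in TET_KO on D2, against 53.7, 48.1 and 42.2% in TET_WT. The longer window also holds an Anks1b start with 8 CpGs. In the same libraries, Anks1b thus had starts in an unmethylated window and in a partly or highly methylated one. Bulk libraries cannot show whether both occur in the same cells. At Magi2, the start with 29 CpGs lay in a 495-bp window at 0.625, 0 and 0% in TET_KO on D2, against 0, 1.45 and 0% in TET_WT, and the start with 4 CpGs lay in a 6127-bp window at 68.5, 70.2 and 68.0% in TET_KO, against 46.5, 48.2 and 40.2% in TET_WT. Dpp6 had the opposite order by the CpGs of the start. Its 6-CpG start lay in an 838-bp window, which had 14.8, 21.9 and 12.8% in TET_KO on D2, against 3.82, 2.89 and 10.2% in TET_WT. The 3633-bp window around the 16-CpG start of Dpp6 had 44.7, 48.9 and 45.5% in TET_KO, against 34.0, 44.3 and 35.8% in TET_WT. In each of these genes, Dpp6 included, the shorter window had the lower methylation.

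The windows lie fully inside the gene, so windows that cross the gene's own 5′ end, where a CpG-dense promoter often sits, are outside the rule. Of the starts in these windows, 50.8% had 0 to 3 CpGs, 32.7% had 4 to 8, 9.73% had 9 to 15 and 6.76% had 16 or more, against 30.9, 22.9, 12.6 and 33.6% of all 31396 autosomal starts, a contrast to which the rule itself contributes. Windows around the 188 starts with 0 to 3 CpGs had a median of 77.8% on D2 in TET_KO, against 53.5% in TET_WT, which is close to the level of the whole class. Windows around the 25 starts with 16 or more CpGs had a median of 6.86% in TET_KO, against 2.72% in TET_WT. Of those 25 starts, 16 lay in a window under 10% in TET_KO on D2, against 20 in TET_WT.

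**Figure D1:**
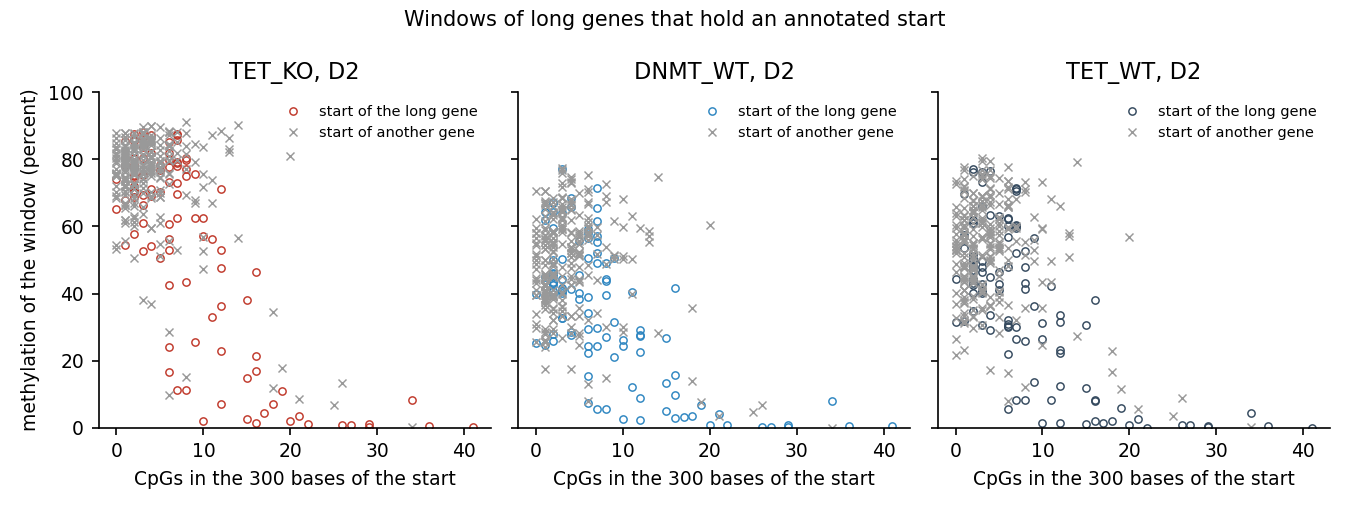
Methylation on D2 (percent, mean of 3 libraries) of windows that hold an annotated start, against the number of CpGs in the 300 bases around that start, in TET_KO, DNMT_WT and TET_WT. Windows around starts with 0 to 3 CpGs have medians of 77.8% in TET_KO, 46.1% in DNMT_WT and 53.5% in TET_WT, and those with 16 or more have medians of 6.86, 3.58 and 2.72% in the same order of lines.

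The long-gene windows were highly methylated in TET_KO cells on every day and gained methylation in all 3 lines. Their mean on D0 was 52.8, 52.4 and 54.6% in the 3 TET_KO libraries, 2.37, 2.45 and 2.48% in DNMT_WT, and 25.2, 26.0 and 25.8% in TET_WT. On D1 it was 60.9, 60.9 and 61.9% in TET_KO, 9.89, 10.1 and 10.3% in DNMT_WT, and 33.8, 30.9 and 33.7% in TET_WT. On D2 it was 74.1, 75.1 and 72.5% in TET_KO, 46.4, 45.6 and 46.3% in DNMT_WT, and 49.96, 54.7 and 48.9% in TET_WT. The lines did not overlap on any day, and TET_KO on D0 lay within the range of TET_WT on D2. The second TET_WT library on D2 stood highest in its group.

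**Figure D2:**
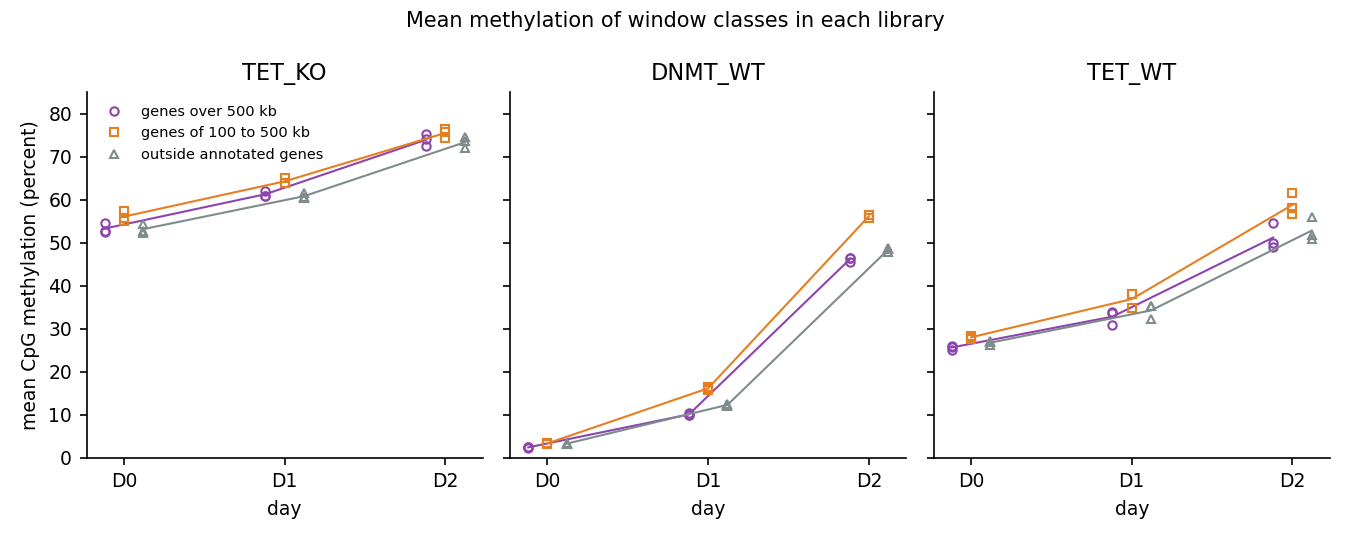
Mean methylation (percent) of 3 window classes by day in TET_KO, DNMT_WT and TET_WT, where each point is 1 library. On D2 the long-gene windows of TET_KO average 73.9% and lie near the other classes, whereas those of DNMT_WT (46.1%) and TET_WT (51.2%) lie below windows of genes of 100 to 500 kb (56.1 and 58.8%).

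TET_KO exceeded TET_WT by 27.6 ± 0.739 points on D0, by 28.4 ± 1.01 the next day and by 22.7 ± 1.92 on D2 (difference of class means ± SE, 3 libraries each). Each day alone gave the smallest two-sided exact permutation p that 3 against 3 libraries allow, 0.1, and the 3 days as strata gave a mean difference of 26.3 ± 0.766 points (exact permutation p = 0.00025, the lowest possible with 8000 arrangements). DNMT_WT minus TET_WT averaged -17.0 points over the days (exact permutation p = 0.00025). By day it was -23.2 ± 0.248 on D0, -22.7 ± 0.962 the next day and -5.08 ± 1.78 on D2. From D0 to D1 the class gained 7.98 points in TET_KO, 7.65 in DNMT_WT and 7.16 in TET_WT. From D1 to D2 it gained 12.7 points in TET_KO, 36.0 in DNMT_WT and 18.4 in TET_WT. Over the 3 lines as strata, both steps had an exact permutation p of 0.00025, with means of 7.60 and 22.3 points. These differences come with a shift of the whole library: the median over all windows was 30.4, 30.3 and 20.7 points higher in TET_KO than in TET_WT on D0, D1 and D2, and its DNMT_WT minus TET_WT difference on D2 was -2.97 points.

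A single window counted as changed when the limma fit over all 444250 windows gave it an adjusted p (Benjamini-Hochberg) under 0.05 and a difference of at least 10 points. On D0, 25324 of 25893 long-gene windows were higher in TET_KO and 4 were lower, where 92.9% of all windows were higher and 0.0223% lower. On D1 the counts were 25304 higher and 2 lower (92.6 and 0.0248% of all windows). On D2 they were 24151 higher and 4 lower, where 84.3% of all windows were higher and 0.0542% lower. The median difference on D2 was 23.3 points in long-gene windows and 17.9 in all windows. With each library centred on its own median, the split turned on D0 to 495 higher and 3045 lower (3.69 and 19.2% of all windows), and on D2 to 4681 higher and 2055 lower (8.47 and 18%). On D2, then, long-gene windows stood on the higher side of the genome's own shift. Between the wild types, 24794 windows were lower in DNMT_WT on D0 (88.9% of all windows) and 24840 on D1 (85.6%). On D2, 155 were higher and 3936 lower in DNMT_WT, against a background of 1.78 and 10.5%. The D2 count of calls ranged from 2661 to 5732 when 1 library was left out.

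Genes of 100 to 500 kb hold 76979 autosomal windows and are the next class by gene length. Long-gene windows were the lower of both classes in every library. The distance on D2 was -1.60, -1.36 and -1.76 points in TET_KO, against -8.07, -6.97 and -7.77 points in TET_WT. On D0 the means were -2.78 points in TET_KO and -2.36 in TET_WT, so TET_KO had the wider distance on D0 and the narrower one on D2. TET_KO minus TET_WT of this distance was -0.417 ± 0.0496 points on D0, 1.09 ± 0.162 the next day and 6.03 ± 0.349 on D2 (SE, exact permutation p = 0.1 on each day, the smallest possible), with a mean of 2.23 ± 0.129 over the days (exact permutation p = 0.0095). The sign on D0 turned to 0.0745 when the comparison class was weighted to the same window lengths, and the D2 value was then 4.12.

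In percentage points, the long genes of the wild types lay further below the shorter ones on each later day. The levels rose over the same days. In DNMT_WT the means were 2.43% in long genes and 3.36% in genes of 100 to 500 kb on D0, near the floor, which limits the distance there. They were 10.1 and 16.2% on D1, and 46.1 and 56.1% on D2. The distance relative to the level was not tested. In DNMT_WT the distance to genes of 100 to 500 kb was -0.932 points on D0, -6.08 the next day and -10.1 on D2, and in TET_WT it was -2.36, -4.08 and -7.60. In TET_KO it was -2.78, -2.99 and -1.57. Over the lines, the distance changed by -2.36 points from D0 to D1 (exact permutation p = 0.00025) and by -2.03 from D1 to D2 (exact permutation p = 0.0123), although the second step was 1.42 in TET_KO. DNMT_WT minus TET_WT of this distance was 1.43 points on D0, -1.99 the next day and -2.45 on D2, and its mean of -1.005 did not pass 0.05 (exact permutation p = 0.0563). Weighted to the same window lengths, the D2 distance was -1.62 points in TET_KO, -7.11 in DNMT_WT and -5.75 in TET_WT.

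Against the 154282 windows that overlap no gene, the differences were small. Long-gene windows less these stood at 0.607 points in TET_KO on D2, -2.29 in DNMT_WT and -1.63 in TET_WT. TET_KO minus TET_WT of that distance was 1.24 points on D0, 1.91 the next day and 2.24 on D2, with a mean of 1.80 ± 0.0547 (SE, exact permutation p = 0.00025). DNMT_WT minus TET_WT averaged -0.397 points (exact permutation p = 0.0103), a value whose sign depended on the gene length chosen. Median window length was 6465 bp in long genes, 4654 bp in genes of 100 to 500 kb and 5997 bp outside genes.

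Gene by gene, a gene being the mean of its windows, all 216 long genes were higher in TET_KO on D2 and 215 were so on D0 and D1, in the limma fit over 12835 genes with at least 3 windows. Of all genes, 97.2% were higher on D0, 97.1% a day later and 88.8% on D2. The 1 exception on D0 was Skint5, a member of a gene family expressed in skin and thymus. Skint5 had 16.7, 15.9 and 22.0% in TET_KO on D0, against 10.1, 9.97 and 10.1% in TET_WT, a difference of 8.12 points. It also had the lowest level of all long genes in TET_KO and in TET_WT on D0 and D2, and its 11 windows had a median length of 19106 bp. At a stricter limit on D2, 148 of 216 long genes differed by at least 20 points (68.5%), where 15.2% of all genes did. The median difference was 23.2 points in long genes and 14.9 in all genes. Windows that overlap no gene averaged 73.3% in TET_KO on D2 and 52.8% in TET_WT, near the 73.9 and 51.2% of long-gene windows. A difference of this size was thus not particular to long genes. After centring each library, 12 long genes stayed higher and 0 lower on D2, against 0.748 and 14.9% of all genes.

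On D2, long genes differed among themselves more in the wild types than in TET_KO. Their levels ranged from 29.8 to 84.0% in TET_KO on D2 (median 74.0%), from 15.7 to 69.0% in DNMT_WT (median 44.9%) and from 16.8 to 72.2% in TET_WT (median 50.4%). The SD between genes was 7.17 points in TET_KO, 11.2 in DNMT_WT and 10.7 in TET_WT. Of the variance among long-gene windows, 28.1% lay between genes in TET_KO, 49.5% in DNMT_WT and 44.0% in TET_WT. The median over all genes measured was 71.0% in TET_KO, 54.1% in DNMT_WT and 54.5% in TET_WT. The median long gene thus stood above it in TET_KO and below it in the wild types. The order of the spread was not the same on the earlier days. On D0 the SD between genes was 7.48 points in TET_KO, 1.08 in DNMT_WT and 5.59 in TET_WT. The shares of variance between genes were 32.7, 17.0 and 28.9% in that order. TET_KO also had the largest SD on D1, 8.38 points against 6.97 in TET_WT. The share on D1 was largest in DNMT_WT (44.3%). Whether the spread follows the level was not tested.

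Genes for synaptic and axonal adhesion and guidance were among the least methylated in the wild types on D2. Medians over the 34 measured genes of that list were 71.1% in TET_KO, 38.5% in DNMT_WT and 44.1% in TET_WT on D2. All 34 were higher in TET_KO on both D0 and D2, where 97.2 and 88.8% of all genes were. Their median differences were 27.5 and 26.97 points, against 27.9 and 23.2 over all long genes. At least 20 points on D2 were reached by 30 of 34, where 68.5% of long genes and 15.2% of all genes did so. Lrrc4c, a postsynaptic partner of netrin-G, had 63.3, 64.5 and 60.8% in TET_KO on D2, against 30.2, 35.2 and 29.2% in TET_WT. The difference was 31.3 ± 1.11 points (SE, limma adjusted p = 1.41e-25). Limma SEs pool the spread of all 9 groups. For the class mean that spread was widest in TET_WT on D2 (SD 3.05 points), so SEs and p-values against this group can be too small. Robo2, an axon guidance receptor for Slit proteins, differed by 31.7 points and Csmd3, a large membrane protein of neurons, by 32.1. The longest of the list, Cntnap2 and Lsamp, which code for neuronal adhesion proteins, differed by 28.0 and 27.9 points.

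The cadherin list held the largest difference of all. Pcdh9, a protocadherin of the brain that spans 879.1 kb of chromosome 14, had 69.3, 70.7 and 67.2% in TET_KO on D2, 28.7, 27.6 and 28.8% in DNMT_WT, and 30.3, 36.0 and 30.2% in TET_WT. TET_KO exceeded TET_WT by 30.4 points on D0 and by 36.9 ± 1.16 points on D2 (limma adjusted p = 7.42e-27), and every library of the knockout lay far above every wild-type library. Ctnna2, the neuronal alpha-catenin that ties cadherins to actin, differed by 28.3 points on D2. The next 4 genes by size are no cadherins. Cadm2, a synaptic adhesion protein, had 69.0, 70.8 and 67.2% in TET_KO on D2, against 34.5, 38.9 and 34.0% in TET_WT, a difference of 33.2 ± 1.11 points (limma adjusted p = 3.56e-26). Mdga2 and Lrrtm4, regulators of synapse formation, differed by 32.5 and 32.3 points, and Ralyl, an RNA-binding protein, by 32.2.

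Receptor genes also had low wild-type levels. The medians of the 7 neurotransmitter receptor genes were 70.9% in TET_KO, 34.6% in DNMT_WT and 42.1% in TET_WT on D2. All 7 were higher in TET_KO, as were all 216 long genes and 88.8% of all genes. Grm5, a metabotropic glutamate receptor, had 63.6, 65.8 and 61.9% in TET_KO on D2, against 31.4, 36.7 and 31.6% in TET_WT. Its relative Grm7 differed least of them, with 60.0, 61.6 and 58.4% in TET_KO against 40.4, 46.6 and 39.5% in TET_WT, a difference of 17.9 points on D2 and 16.3 on D0. Among 13 ion channel genes the range was wide. Kcnd2, a potassium channel subunit, differed by 30.7 points on D2, and Ryr2, the calcium release channel of heart muscle that also occurs in brain, by 14.8.

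The list of trafficking and maintenance genes, labelled as of wide expression, had higher wild-type levels. Expression was not measured, so that label was not checked here. Exoc4, Immp2l, Wwox, Fhit, Rad51b and Nbea are also in the list of common fragile site genes. The medians of 14 trafficking and maintenance genes were 77.4% in TET_KO, 53.1% in DNMT_WT and 58.7% in TET_WT on D2. All 14 were higher in TET_KO, where 97.2% of all genes were on D0 and 88.8% on D2. Their median difference was 28.0 points on D0 and 15.2 on D2, near the 26.9 and 14.9 of all genes measured. Of the 14, 5 reached 20 points on D2, where 68.5% of long genes and 15.2% of all genes did. Cdkal1, an enzyme that modifies transfer RNA, had 83.8, 84.2 and 82.9% in TET_KO on D2, against 71.9, 73.9 and 70.8% in TET_WT. Its difference of 11.4 ± 1.10 points was the smallest of all long genes on D2 (limma adjusted p = 7.46e-13). On D0 the same gene differed by 26.0 points. Smyd3, a lysine methyltransferase in none of the lists, differed by 30.6 points on D0 and 12.5 on D2.

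Several signalling genes shared this pattern. Dock1, which activates the small GTPase Rac, had 63.7, 63.3 and 66.6% in TET_KO on D0, against 37.1, 37.6 and 37.4% in TET_WT. On D2 it had 83.4, 84.0 and 81.1% in TET_KO, 69.4, 68.7 and 68.9% in DNMT_WT, and 70.3, 73.6 and 68.8% in TET_WT. The wild types overlapped there, and TET_KO exceeded TET_WT by 11.9 ± 1.19 points (limma adjusted p = 2.27e-12). Elmo1, the partner protein of Dock family members, differed by 11.8 points on D2. Over the 24 genes of the signalling list, however, the D2 median was 23.7 points, and Ptprd, a receptor phosphatase of synapses, differed by 30.1.

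Regulators of transcription and RNA and genes at common fragile sites, chromosome regions that break under replication stress and are best known from human cells, lay between these lists. The 18 transcription and RNA regulators had D2 medians of 77.1% in TET_KO, 52.9% in DNMT_WT and 57.1% in TET_WT. Of these, 9 of 18 differed by 20 points or more, where 68.5% of long genes and 15.2% of all genes did. Rbfox1, a splicing regulator of neurons and muscle, had the largest D0 difference of all long genes, with 54.0, 53.8 and 56.1% in TET_KO, against 21.6, 22.5 and 22.3% in TET_WT (32.5 ± 1.13 points, limma adjusted p = 4.36e-27). Within this list, the forkhead factors Foxp2 and Foxp1 differed by 31.3 and 13.2 points on D2. Foxp2 had 65.4, 67.3 and 63.4% in TET_KO, against 32.5, 37.8 and 31.8% in TET_WT, and Foxp1 had 82.5, 82.9 and 81.2% in TET_KO, against 69.0, 70.8 and 67.3% in TET_WT. Among 20 fragile site genes, 10 reached 20 points on D2, against the same 68.5 and 15.2%. Lrp1b, a lipoprotein receptor relative, and Macrod2, a hydrolase of ADP-ribose, differed by 30.1 and 25.5 points, whereas Wwox, an oxidoreductase and tumour suppressor, and Rad51b, a recombination repair protein, differed by 15.5 and 14.1.

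**Figure D3:**
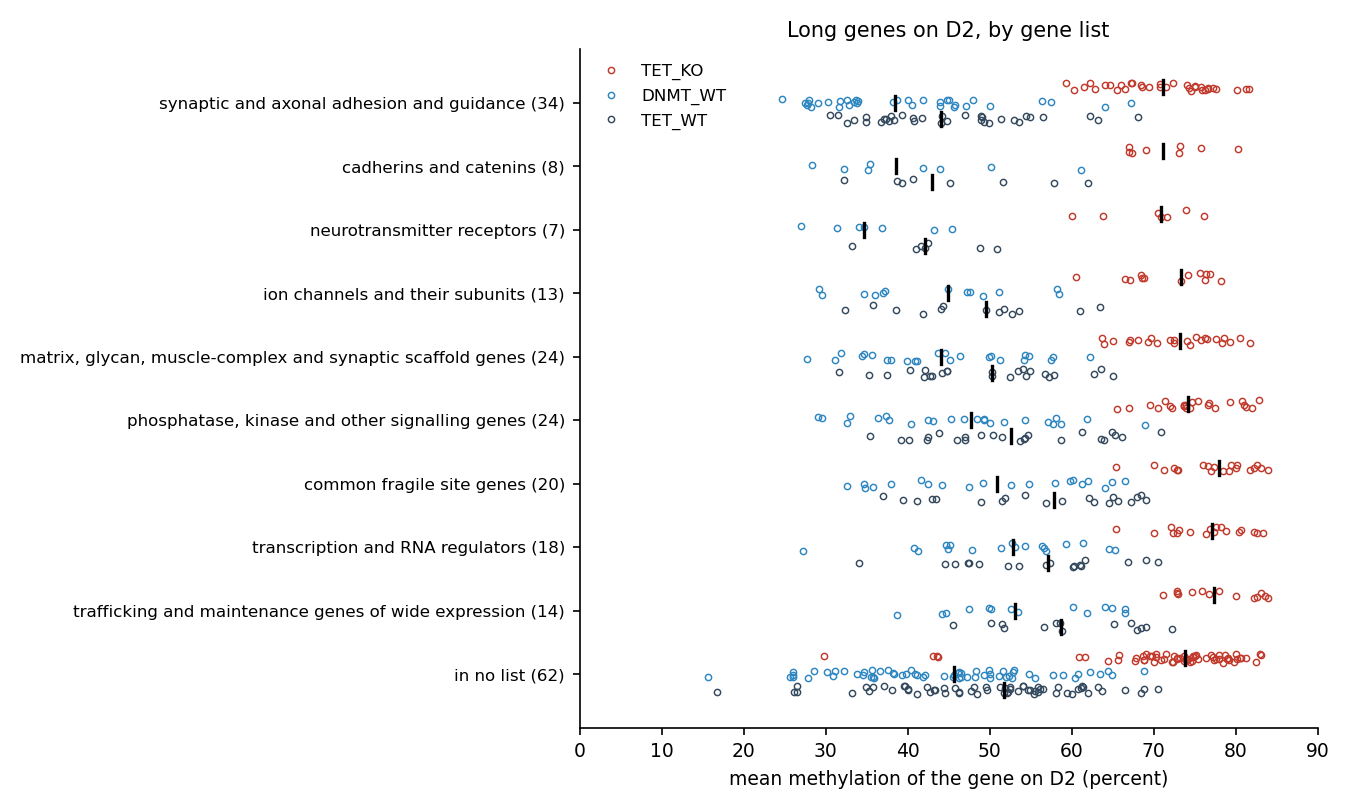
Methylation of each long gene on D2 (percent, mean of 3 libraries) by gene list, in TET_KO, DNMT_WT and TET_WT, with black bars at list medians. In TET_WT the synaptic list has a median of 44.1% and the list of wide expression 58.7%, while in TET_KO they have 71.1 and 77.4%.

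The remaining lists lay near the class as a whole. The 24 matrix, glycan, muscle-complex and synaptic scaffold genes had a median difference of 23.5 points on D2, and the 62 genes in no list had 21.7. Counts of lists overlap where a gene is in more than 1 list, and the lists were drawn up by hand with earlier results of these data known.

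The gain from D0 to D2 also differed between the knockout and its parent. Of the windows, 1265 gained more in TET_KO and 7958 less (2.5 and 44.2% of all windows). Centred on the library medians, 7580 gained more and 1060 less (17.9 and 8.45%). In the limma fit, 0 long genes gained more in TET_KO by at least 10 points and 47 gained less, where 0.0545 and 62.7% of all genes did. The median difference of gains was -4.78 points in long genes and -11.6 in all genes. After centring, 57 long genes gained more and 0 less, against 4.07 and 1.45% of all genes, so relative to the library medians the split turned. The 5 largest positive differences were those of Mgat4c, a glycosyltransferase gene (9.26 ± 1.62 points, limma adjusted p = 1.78e-06), Lrrc4c (9.04 ± 1.57, adjusted p = 1.5e-06), Cntnap5b (7.99), Fstl5 (7.60) and Nrg3, a ligand of Erbb4 (7.44). Each stayed under the 10-point limit. DNMT_WT, which started lowest, gained more than TET_WT in 20905 windows and 203 genes (82.7% of all windows and 92.3% of all genes). Mgat4c had 39.1, 38.6 and 41.3% in TET_KO on D0 and 64.3, 65.3 and 61.6% on D2, against 16.1, 17.5 and 16.9% and then 30.1, 35.1 and 29.5% in TET_WT. Leaving out the second TET_WT library on D2 moved Mgat4c to 11.03 and Lrrc4c to 10.9 points, past the limit.

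The most negative differences of gain were those of Magi1, Smyd3, Tenm4, Ptprg and St6galnac3. Magi1, a scaffold of epithelial junctions, had 59.3, 59.2 and 61.7% in TET_KO on D0 and 79.0, 79.4 and 77.1% on D2, against 28.3, 29.1 and 29.2% and then 65.6, 67.7 and 63.8% in TET_WT. The difference of its gains was -18.4 ± 1.63 points (limma adjusted p = 2.93e-12). Smyd3 had a difference of gains of -18.04 points, the teneurin Tenm4 of -17.1, the receptor phosphatase Ptprg of -16.4 and the sialyltransferase St6galnac3 of -15.6. Tenm4 belongs to the synaptic list, so that list held both kinds of gene: 3 of its 34 genes gained less, and its median was -0.504. Among the 14 trafficking and maintenance genes, 8 gained less, with a median of -10.9 points, near the 62.7% and -11.6 points of all genes. None of the 7 receptor genes and none of the 8 cadherin genes gained less by 10 points, where 21.8% of all long genes did. Lists of this size are too small to set apart from that share.

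The DNMT_WT level on D2 was used to order the genes, a choice made after the values were seen. It is close to the TET_WT level on D2, with a Pearson r of 0.966 across the 216 genes. That TET_WT level enters both the D2 difference and the difference of gains with a minus sign. How these differences split over the groups below was thus in large part set by the choice. The DNMT_WT level on D2 had a Pearson r of -0.950 with the difference of gains. Long genes ordered by their DNMT_WT level on D2 and cut into 3 groups of 72 had median TET_KO minus TET_WT differences on D0 of 25.6 points in the lowest group, 28.7 in the middle and 28.6 in the highest. On D2 the medians were 28.3, 24.2 and 17.5 points in the same order. The difference of gains was 2.84 points in the lowest group, -4.78 in the middle and -11.1 in the highest, and of the 47 genes that gained less 0, 1 and 46 lay in these groups. The lowest group held 16 of the 34 synaptic genes and 5 of the 7 receptors, the highest 5 and 0. Of the 14 trafficking and maintenance genes, 0 fell in the lowest group and 9 in the highest. Across the 216 genes the DNMT_WT level on D2 had a Pearson r of -0.794 with the D2 difference (Spearman rho -0.810), and of 0.518 with the D0 difference (rho 0.482). These are descriptions across genes, which share libraries and are not independent. Points also share CpG density: the median window length fell with the DNMT_WT level, at 8986, 6816 and 5125 bp in the 3 groups, and had a rho of -0.759 with it. With windows of 5 to 7 kb only, in 204 genes with at least 5 of them, rho between the DNMT_WT level and the D2 difference was -0.776. The TET_WT level on D2 enters this value in the same way.

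**Figure D4:**
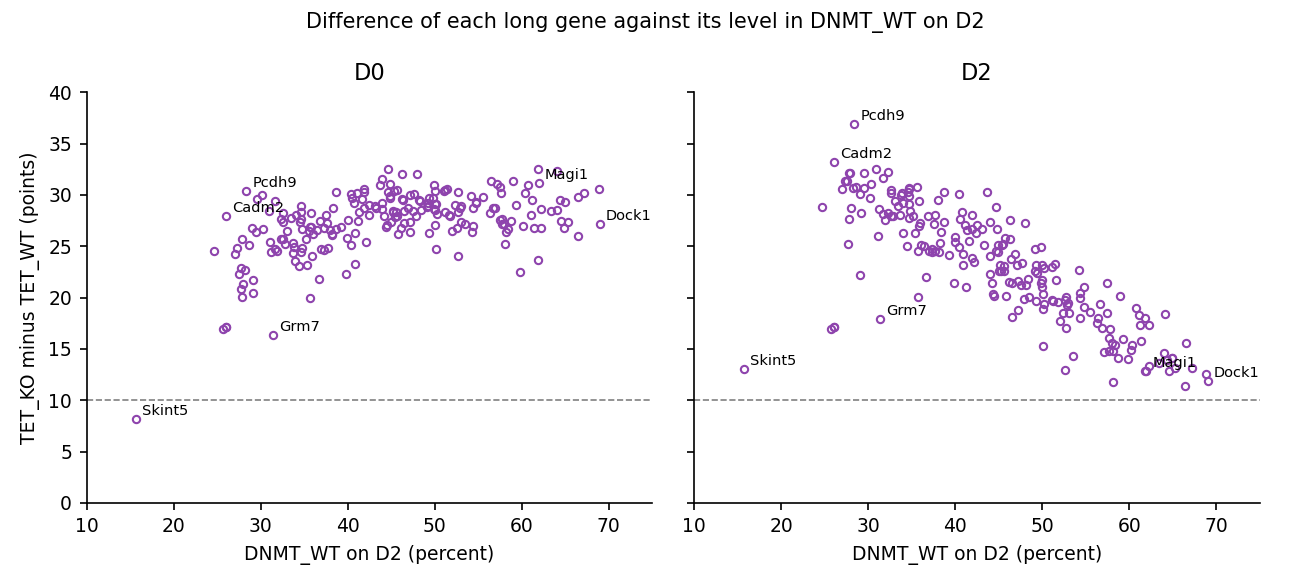
TET_KO minus TET_WT (percentage points) of each long gene on D0 and on D2, against its level in DNMT_WT on D2 (percent), with a dashed line at 10 points. On D2 the differences run from 36.9 points for Pcdh9 to 11.4 for Cdkal1, and on D0 the same genes differ by 30.4 and 26.0 points.

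CpG spacing moved with the levels. Long-gene windows of 2 to 4 kb had a mean of 78.9% in TET_KO on D2, against 62.0% in TET_WT, and those over 12 kb had 63.7% in TET_KO, against 33.9% in TET_WT. Windows of 4 to 8 kb had 77.4% in TET_KO against 55.8% in TET_WT inside long genes, and 79.1% against 61.9% inside genes of 100 to 500 kb. Windows of 8 to 12 kb had 70.1% in TET_KO and 42.3% in TET_WT inside long genes, and 73.9 and 52.2% inside genes of 100 to 500 kb. In these 2 bins long genes were lower than shorter genes, more so in TET_WT. In shorter windows the order turned or was close: windows of 2 to 4 kb in genes of 100 to 500 kb had 78.3% in TET_KO and 62.6% in TET_WT, and windows under 2 kb had 34.0% in TET_KO and 25.3% in TET_WT inside long genes, against 25.7 and 18.7% inside genes of 100 to 500 kb. Beyond the weighting by window length given above, the part of CpG spacing in these values was not tested.

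Fewer long genes passed the 10-point limit on the first day than on the second in each line. From D0 to D1, 0 long genes rose by 10 points in TET_KO (2% of all genes), 49 in DNMT_WT (71.4%) and 9 in TET_WT (24%). Leaving out 1 library moved the TET_KO count to at most 9, and the TET_WT count to between 5 and 30, the highest without the second D1 library. At an adjusted p under 0.05 with no minimum difference, all 216 rose in TET_KO, where 97.7% of all genes did. In DNMT_WT, 8 of the 14 trafficking and maintenance genes and 3 of the 34 synaptic genes rose by 10 points on the first day. Smyd3, Dock1 and Tenm4 led with 19.4, 19.2 and 19.1 points. Cadm2 had a difference of 2.297 points, under the limit. From D1 to D2, 187 long genes rose in TET_KO (56.7% of all genes), all 216 in DNMT_WT (97.5%) and 210 in TET_WT (94.5%). Ptprg, Magi1 and Dock2 led in TET_WT. As windows, 5336 rose from D0 to D1 in TET_KO (20.1% of all windows), 7460 in DNMT_WT (49%) and 4261 in TET_WT (27.6%), and from D1 to D2 19023 in TET_KO (65.8%), 25495 in DNMT_WT (94.9%) and 23492 in TET_WT (88%).

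The wild-type lines were far apart on D0 and near each other on D2. On D0, 215 long genes were lower in DNMT_WT (88.9% of all genes), and on D1 215 (78.8%), each time without Skint5. On D2, 0 were higher and 14 lower (0.873 and 1.68% of all genes), and the median difference was -5.41 points in long genes and -0.178 in all genes. Leaving out 1 library moved the D2 count to between 6 and 22, the lowest without the second TET_WT library on D2. Rarb, a retinoic acid receptor, had 47.1, 45.9 and 46.6% in DNMT_WT on D2, against 60.9, 65.4 and 59.6% in TET_WT, the most negative difference (-15.4 ± 1.12 points, limma adjusted p = 3.76e-14). Edil3, a matrix protein of vessels, and Sntg1, a syntrophin of neurons, followed with -14.2 and -12.9 points. The most positive was Nav2, a neuron navigator gene, at 2.38 points, which did not pass the test (limma adjusted p = 0.0846).

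By distance from the 5′ end, up to 300 kb, mean methylation was lowest in the windows nearest the start. In the 169 genes with a known strand, the first 10 kb had a mean of 42.2% in TET_KO on D2, 26.7% in DNMT_WT and 27.9% in TET_WT. The next 10 kb had 74.99, 47.6 and 52.5% in the same order of lines, and the last bin, which ends at 300 kb, had 74.7, 45.8 and 51.3%. Over the first 25 kb (806 windows) the means on D0, D1 and D2 were 41.2, 47.2 and 57.3% in TET_KO, 1.86, 7.90 and 36.3% in DNMT_WT, and 18.8, 24.4 and 39.2% in TET_WT. Beyond 200 kb (15181 windows) they were 53.9, 61.9 and 74.8% in TET_KO, 2.40, 10.0 and 46.4% in DNMT_WT, and 25.8, 33.1 and 51.6% in TET_WT. The first 25 kb less the windows beyond 200 kb differed between TET_KO and TET_WT by -5.55 ± 0.188 points over the days (SE, exact permutation p = 0.00025), and between DNMT_WT and TET_WT by 5.14 ± 0.168 (exact permutation p = 0.00025). In percentage points the step was thus deepest in TET_KO, the line with the highest level. Median window length was 4688 bp in the first 25 kb and 6586 bp beyond 200 kb. By distance from the nearer end, in all 216 genes, windows beyond 200 kb were lower on D2 than those of 25 to 50 kb in every line. Against the first 25 kb they were higher in TET_KO and TET_WT and nearly equal in DNMT_WT. Median window length was 4704 bp in the first 25 kb, 5722 bp at 25 to 50 kb and 7081 bp beyond 200 kb. The first 25 kb, 25 to 50 kb and beyond 200 kb had 44.4, 49.4 and 44.3% in DNMT_WT on D2. The same bins had 47.7, 54.1 and 49.7% in TET_WT, and 66.5, 75.5 and 73.7% in TET_KO.

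**Figure D5:**
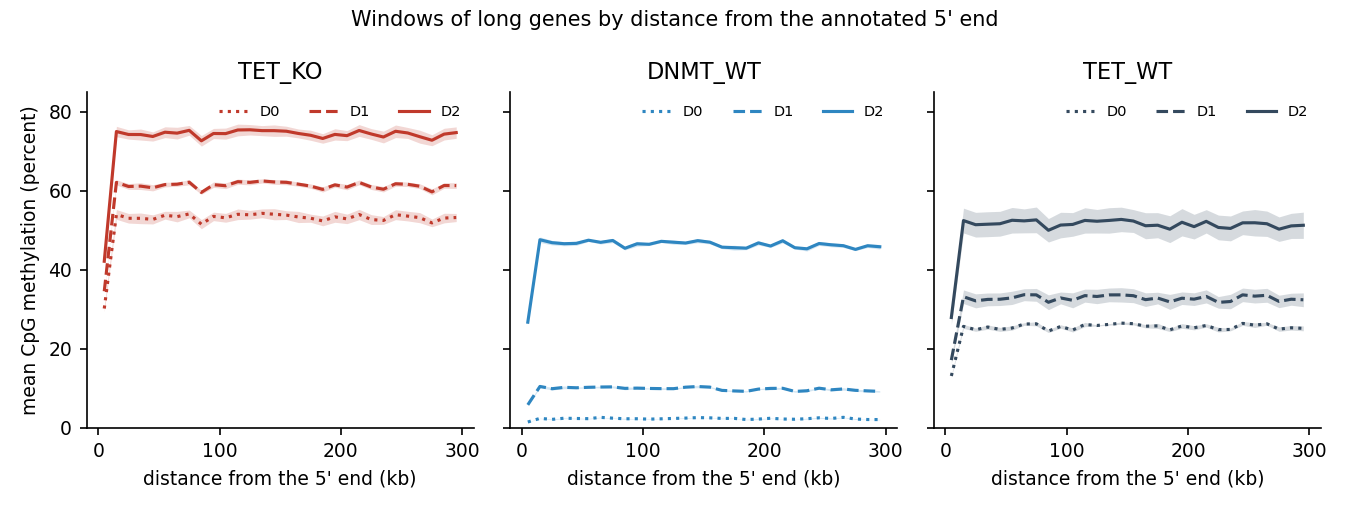
Mean methylation (percent) of long-gene windows in 10-kb bins of distance from the annotated 5′ end, up to 300 kb, for TET_KO, DNMT_WT and TET_WT by day, with shading for the SD of 3 libraries. On D2 the first bin lies at 42.2, 26.7 and 27.9% in these lines, and the next bin lies at 74.99, 47.6 and 52.5%.

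A small set of windows stayed unmethylated throughout. Of the long-gene windows, 183 (0.707%) were under 5% in all 27 libraries, in 103 genes, with a median length of 505 bp. Of the other autosomal windows, 12421 (3.13%) were.

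Single windows showed larger differences than whole genes. A window of Iqcm at chr8:75686109-75690057 had 79.5, 84.5 and 75.1% in TET_KO on D0, against 14.8, 14.1 and 15.5% in TET_WT, the largest difference among windows whose libraries do not overlap (64.9 ± 2.88 points, limma adjusted p = 5.52e-17). It still had 89.2, 88.6 and 89.9% in TET_KO on D2, against 46.5, 34.8 and 34.0% in TET_WT. A window of Zfhx3, a homeobox transcription factor, at chr8:108948701-108949764 had 63.3, 76.8 and 78.4% in TET_KO on D0, against 8.96, 8.30 and 10.9% in TET_WT. On D2, a window of Zbtb20, a zinc finger repressor, at chr16:43608531-43609960 had 87.4, 85.6 and 85.1% in TET_KO, 27.7, 31.1 and 30.7% in DNMT_WT, and 24.5, 28.4 and 26.8% in TET_WT (TET_KO minus TET_WT 59.4 ± 2.64, limma adjusted p = 7.58e-17). On D0 all 3 of these windows had at least 60.1% in every TET_KO library and at most 20.2% in every DNMT_WT and TET_WT library.

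On D0, 4 windows went the other way. The most marked lay in Erc2, a scaffold gene of the presynaptic active zone, at chr14:27688410-27690283. It had 17.8, 34.8 and 26.1% in TET_KO on D0, 6.86, 14.6 and 9.14% in DNMT_WT, and 70.5, 71.9 and 59.2% in TET_WT, a TET_KO minus TET_WT difference of -41.0 ± 3.62 points (limma adjusted p = 1.27e-11). On D2 it had 56.7, 67.5 and 54.8% in TET_KO, 77.7, 79.2 and 80.6% in DNMT_WT, and 89.2, 84.8 and 86.6% in TET_WT. The Erc2 gene as a whole was 29.9 points higher in TET_KO on D0. A window of Ptprg at chr14:11669784-11674972 had 39.97, 39.7 and 42.8% in TET_KO on D0, against 50.8, 56.8 and 49.5% in TET_WT, and the order held on D2 with 64.0, 63.9 and 61.0% in TET_KO, against 78.1, 74.9 and 77.3% in TET_WT. A window of Gpc6, a heparan sulphate proteoglycan gene, at chr14:117546935-117547860 had 74.2, 66.0 and 61.4% in TET_KO on D2, against 90.1, 87.1 and 92.8% in TET_WT. On D0 its libraries overlapped, with 80.1, 70.0 and 69.0% in TET_KO against 76.1, 73.1 and 82.6% in TET_WT.

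The gain of single windows also differed between TET_KO and TET_WT in both directions. The most negative difference lay in a window of Tenm3, a teneurin, at chr8:48731020-48735233, which had 71.8, 66.2 and 69.5% in TET_KO on D0 and 86.6, 86.6 and 89.6% on D2, against 14.8, 14.3 and 10.6% and then 74.2, 73.4 and 67.0% in TET_WT (difference of gains -39.9 ± 2.96, limma adjusted p = 2.34e-09). In the other direction, a window of Ank2, a membrane scaffold gene, at chr3:127140920-127144368 led with 23.5 ± 6.02 points. The next, in the transcription factor gene Sox6 at chr7:115587651-115590147, had 49.9, 50.5 and 66.4% in TET_KO on D0 and 87.6, 82.5 and 80.2% on D2, against 37.7, 33.4 and 23.9% and then 31.3, 41.3 and 40.3% in TET_WT (21.8 ± 6.84, adjusted p = 0.00741). TET_WT libraries overlapped between D0 and D2 in that window.

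Just over the limit of 500 kb, Edil3, Dock1 and Samd12, at 501.8, 503.0 and 503.4 kb, had 74.0, 82.8 and 74.4% in TET_KO on D2, against 44.4, 70.9 and 54.0% in TET_WT. Cacna1e, Lrrc7 and Dnm3, just under it at 494.0, 494.8 and 495.9 kb, had 71.2, 63.5 and 75.2% in TET_KO, against 48.4, 35.8 and 55.2% in TET_WT. Among the long genes themselves, length had a Spearman rho of -0.283 with the TET_WT level on D2 and of -0.205 with the TET_KO level, across 216 genes measured in the same libraries.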

How the data were processed

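The authors deposited methylation as a percent per library and window. Per the submitters' processing notes, reads were handled with Trim Galore 0.6.6, cutadapt 2.3 and Bismark 0.23.0 on GRCm38. How windows were filled and which coverage filter was used are not given in the sources used here. The deposited table holds no counts, so depth is unknown and no counting interval can be given.

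Of 453239 nuclear windows, 444250 with a value in all 27 libraries entered the fit. In R 4.3.3, limma 3.58.1 fitted, with lmFit and a trended eBayes, a mean for each of 9 groups with 18 residual degrees of freedom, for windows and for 12835 genes with at least 3 windows fully inside them, in 14 contrasts. Calls need a Benjamini-Hochberg adjusted p under 0.05 over all windows or genes and at least 10 points. The fit shares 1 residual spread per window or gene over all 9 groups, although the spread differed between groups. The mean of the long-gene windows had an SD of 0.0562 points in DNMT_WT on D0 and 3.05 in TET_WT on D2. Limma SEs and p-values can therefore understate the spread in contrasts with TET_WT on D2. Class means were tested by two-sided exact permutation over libraries. The rest used scipy 1.17.1, pandas 2.3.3, numpy 2.4.6 and matplotlib 3.10.9 under Python 3.11.15.

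Strand came from the RefSeq start table for 169 genes. Members and lists were chosen with earlier results of these data known. The text names the longest genes, those at the length limit, the highest and lowest levels, the largest and smallest differences of each contrast, the 3 largest per list, and the windows with the largest differences whose libraries do not overlap; other genes named for comparison (Grm7, Ctnna2, Foxp1 on D2, Tenm3 and the like) were chosen after their values were seen. Between deviations from the group means, the 108 pairs of same-numbered libraries correlated at -0.0604 to 0.0602, so they were not treated as pairs. The largest share of identical values between any 2 libraries was 1.16%. The fit was tested on simulated data: for TET_KO against TET_WT on D2, 21, 50, 50 and 50 of 50 genes with differences of 10, 15, 20 and 30 points were called, and 0 of 12635 unchanged genes. For windows, 13, 41, 47 and 49 of 50 were called at these sizes, and 5 of 444050 unchanged windows. The simulated noise was independent between windows and between genes, with the same spread in every group. It held no shift shared by a whole library, so these counts do not cover false calls from such shifts. Alternatives were the length limit, window weighting, overlap with other genes, centring, scale, groups in the fit, a replicate block, gene medians and leaving out each library.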

Additional observations from a re-analysis of the deposited data

Results flagged for a closer look

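The gain from D0 to D2 differed between lines inside long genes, by a test of the difference of gains in limma. For TET_KO minus TET_WT, 1265 long-gene windows gained more and 7958 gained less (2.5 and 44.2% of all windows), and 47 genes gained less (62.7% of all genes). Centred on the library medians, 7580 windows gained more and 1060 less (17.9 and 8.45% of all windows). For DNMT_WT minus TET_WT, 20905 windows and 203 genes gained more (82.7% of all windows and 92.3% of all genes). DNMT_WT began at 2.43 ± 0.0562% and TET_WT at 25.6 ± 0.426% on D0 (SD, n = 3 each).

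Windows of genes over 500 kb on the X chromosome are outside the autosomal members. The 943 X-linked windows averaged 46.0, 53.3 and 68.8% in TET_KO on D0, D1 and D2, 2.02, 7.23 and 35.9% in DNMT_WT, and 21.1, 26.9 and 41.3% in TET_WT. TET_KO minus TET_WT was 24.9 points on D0, 26.4 the next day and 27.5 on D2 (exact permutation p = 0.1 on each day, the smallest possible with 3 libraries a group).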

How the results depend on the processing

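Across settings other than leaving out a library, 309 values and counts for the class kept their label. Another 54 moved, 25 reversed, 3 came past the threshold and 1 lost its call. Counts kept their label within 1.5 times, and differences kept it by sign and call alone, whatever their size. The 309 thus include TET_KO minus TET_WT on D2, which fell from 22.7 to 2.00 points under centring. Single-day and single-line differences cannot give an exact permutation p below 0.1, so no setting could change their call. Leaving out 1 library kept 1204, moved 10 and lost the call of 10. The cause was not tested for the changes below. Centring each library on its median turned the class difference TET_KO minus TET_WT to -2.74 points on D0, -1.90 on D1 and -0.880 over the days, and on D2 left 2.00. It turned D0 to D1 to -0.450 in TET_KO, -2.65 in DNMT_WT, -1.30 in TET_WT and -1.47 over lines, and D1 to D2 to -0.121, -4.46, -4.02 and -2.87 in that order. DNMT_WT minus TET_WT of the class was -23.2, -22.7 and -5.08 points on D0, D1 and D2 before centring. The library medians themselves differed by -22.9, -21.0 and -2.97 points, so centring takes away most of this difference on D0 and D1.

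Against genes of 100 to 500 kb, weighting by window length turned TET_KO minus TET_WT on D0 to 0.0745, and DNMT_WT minus TET_WT over the days passed 0.05 without windows in other genes (-1.09) and with genes over 300 kb (-1.26). Against windows outside genes, genes over 300 kb turned DNMT_WT minus TET_WT to -0.476 on D0 and 0.0552 on D2, D0 to D1 to 0.0818 in DNMT_WT, 0.171 in TET_WT and 0.235 over lines, and D1 to D2 to -0.275 in TET_KO, 1.61 in DNMT_WT, 0.992 in TET_WT and 0.776 over lines. Genes over 1000 kb gave 0.0267 for DNMT_WT minus TET_WT over the days, and -1.06 for D1 to D2 over lines, past 0.05. Weighting by length gave -0.315 for D0 to D1 over lines, no longer past 0.05, and for D1 to D2 -0.0116 in TET_KO, 0.209 in DNMT_WT and 0.0621 over lines. D0 to D1 over lines ranged from -0.467 to -0.444 without 1 library and lost its call in 10 of these fits.

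Counts of windows moved by over 1.5 times as follows. Centring left 3540, 3400 and 6736 calls for TET_KO minus TET_WT on D0, D1 and D2, and 5775, 4045 and 2020 for DNMT_WT minus TET_WT. For D0 to D1, no minimum, 20 points and centring gave 23577, 5 and 31 in TET_KO, 14748, 1015 and 1154 in DNMT_WT, and 21269, 15 and 63 in TET_WT. For D1 to D2, 20 points and centring gave 902 and 537 in TET_KO and 10968 and 4705 in TET_WT, and centring 8406 in DNMT_WT. DNMT_WT minus TET_WT had 16138 at 20 points on D0, and 13135 with no minimum and 272 at 20 points on D2. The difference of gains for TET_KO had 14202 with no minimum, 964 at 20 points and 2934 on the logit scale, and that for DNMT_WT 10489 at 20 points and 7420 centred. Leaving out 1 library gave 2661 to 5732 for DNMT_WT minus TET_WT on D2, 4487 to 8321 for D0 to D1 in TET_KO and 3617 to 6733 in TET_WT.

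Counts of genes after centring were 7, 6 and 12 for TET_KO minus TET_WT, and 8, 5 and 2 for DNMT_WT minus TET_WT, which had 179 with no minimum and 0 at 20 points on D2. For D0 to D1, no minimum, 20 points and centring gave 215, 0 and 0 in DNMT_WT and 216, 0 and 0 in TET_WT, and no minimum gave 216 in TET_KO. Gene medians gave 7 in TET_KO and 15 in TET_WT. For D1 to D2, 20 points and centring gave 0 and 0 in TET_KO and 75 and 19 in TET_WT, and centring 64 in DNMT_WT. Gains gave 148 with no minimum and 0 at 20 points for TET_KO, and 65 at 20 points and 12 centred for DNMT_WT. Without 1 library, 6 to 22 genes were called for DNMT_WT minus TET_WT on D2, 0 to 9 for D0 to D1 in TET_KO and 5 to 30 in TET_WT. The replicate block moved no count by over 1.5 times, and left 216 genes called for TET_KO minus TET_WT on D2.

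For named genes, centring turned TET_KO minus TET_WT on D2 to -2.87 for Grm7, -5.94 for Ryr2, -7.94 for Magi1, -6.66 for Rad51b, -5.20 for Wwox, -6.08 for Ptprg, -8.86 for Dock1, -8.93 for Elmo1, -7.58 for Foxp1, -7.90 for Lpp, -9.31 for Cdkal1, -8.20 for Smyd3, -7.67 for Skint5 and -7.59 for Tenm4, and the difference of gains of Rbfox1 to 5.97. Unknown depth limits all values, since thinly and deeply covered windows look alike.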

Other observations

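Long genes also differed in how even they were. The SD over a gene's own windows on D0 had a median of 10.2 points in TET_KO and 8.29 in TET_WT. Exoc4, a subunit of the exocyst that tethers vesicles, and Rad51b were the most even in TET_KO, with SDs of 4.36 and 5.81 points. Foxp2 and Kcnd2 were the most even in TET_WT, with 4.41 and 4.71 points. The overlapping gene models Gm37013, Gm38666 and Gm38667, which share most windows on chromosome 18, were the least even in TET_KO, with 17.4, 17.4 and 17.2 points. Next to Skint5 they had the lowest levels on D2, for Gm37013 43.1% in TET_KO, against 26.2% in TET_WT.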
